A study of Danio rerio with 16 samples.

Results

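In zebrafish embryos, 319 windows of 500 bp stayed highly methylated until 24 hours post fertilisation (hpf) and had lost at least 20 percentage points at 36 hpf, when the calls of all libraries of a stage were summed. They were chosen by a rule on the measured levels. A window needed at least 5 CpGs listed in both deposited tables and at least 30 calls in each of the 8 groups of cell type and stage, with replicates summed. Its methylation level, the methylated calls divided by all calls, had to be at least 80% at 4 and 7 hpf. It had to be less than 10 percentage points lower at 24 than at 7 hpf and at least 20 points lower at 36 than at 24 hpf. The rule gave 319 windows, termed late-losing windows, out of 798513 windows that met the minimums on CpGs and calls (0.0399%). Of those, 726463 windows stood at 80% or more at 4 and 7 hpf and are called start windows, so that the late-losing windows were 0.0439% of them. The name late-losing describes the summed calls only. When the rule was applied to some of the libraries, 6.16 to 14.9% of the chosen windows met it in the others. There the mean fall of the chosen windows was already 8.75 to 12.6 points from 7 to 24 hpf.

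Methylation of cytosine in CpG dinucleotides is copied at each division by the maintenance methyltransferase Dnmt1, and it can be lost by dilution when copying fails or by oxidation through Tet enzymes. In zebrafish the embryonic genome is highly methylated after fertilisation, and the pharyngula period is known for loss of methylation at gene-regulatory regions such as enhancers. Primordial germ cells (PGCs), the precursors of eggs and sperm, are set aside early by inherited germ plasm and migrate to the site of the future gonad.

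PGCs and somatic cells were sorted by fluorescence from embryos of 4 stages, the blastula at 4 hpf, the gastrula at 7 hpf and the pharyngula at 24 and at 36 hpf. Their DNA was read by whole-genome bisulfite sequencing, which shows unmethylated cytosines as thymine. All 8 groups, PGC and soma at each stage, carried the kop-egfp-f-nanos3'UTR transgene, in which farnesylated EGFP marks PGCs, in a line that also holds cry-DsRed, and each held 2 replicates, 16 libraries in all. Soma is therefore a mixture of many cell types whose makeup changes with stage, each library came from pooled sorted cells, and the study's methods call the replicates technical at 4 hpf and biological at the later stages. Embryos older than 24 hpf were kept in N-phenylthiourea to block pigment, so the change from 24 to 36 hpf and that treatment cannot be told apart. No expression values were analysed here, so the sorted cells were not checked against marker genes. A level between 0 and 100% in sorted cells also cannot tell full loss in some cells from partial loss in all.

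The shallowest library, replicate 1 of soma at 4 hpf, held 25967678 calls and the deepest, replicate 2 of PGCs at 7 hpf, 250228561 calls. The mean over the 10260021 nuclear CpGs listed in both tables ranged from 2.40 to 21.6 calls per CpG. The unmethylated lambda spike-in read 0.233 to 0.452% methylated in the 8 libraries of replicate 1, over 29998 to 788678 lambda calls each. Replicate 2 held only 50 to 221 lambda calls per library and read 0% in 4 libraries and up to 4.58% (6 of 131 calls, PGC 7 hpf), with 2 of 50 calls in PGC 36 hpf, so that its conversion was hardly measured. A late-losing window had a median of 395 calls at 24 hpf and 573 calls at 36 hpf, summed over the 4 libraries of the stage. The 95% Wilson interval of its pooled level was a median of 6.12 points wide at 24 hpf and 7.77 points at 36 hpf. These intervals treat each CpG call as independent. Calls at several CpGs can come from 1 molecule, so the intervals can be too narrow, and they do not cover differences between libraries.

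The levels of the late-losing windows follow from the rule and are given as a description, without a test. In PGCs, the mean level over the 319 windows was 96.0% ± 0.202 (SD over libraries, n = 2) at 4 hpf and 94.9% ± 0.411 at 7 hpf. It was 88.8% ± 0.622 at 24 hpf and 64.2% ± 0.203 at 36 hpf. Soma began at 96.1% ± 0.345 at 4 hpf and 93.8% ± 0.233 at 7 hpf, and reached 87.6% ± 0.911 by 24 hpf and 65.0% ± 1.45 by 36 hpf. The mean PGC and soma levels lay within 1.23 points of each other at each stage. The start windows as a whole passed from 95.8 to 91.2% in PGCs and from 95.6 to 91.1% in soma between 4 and 36 hpf.

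**Figure D1:**
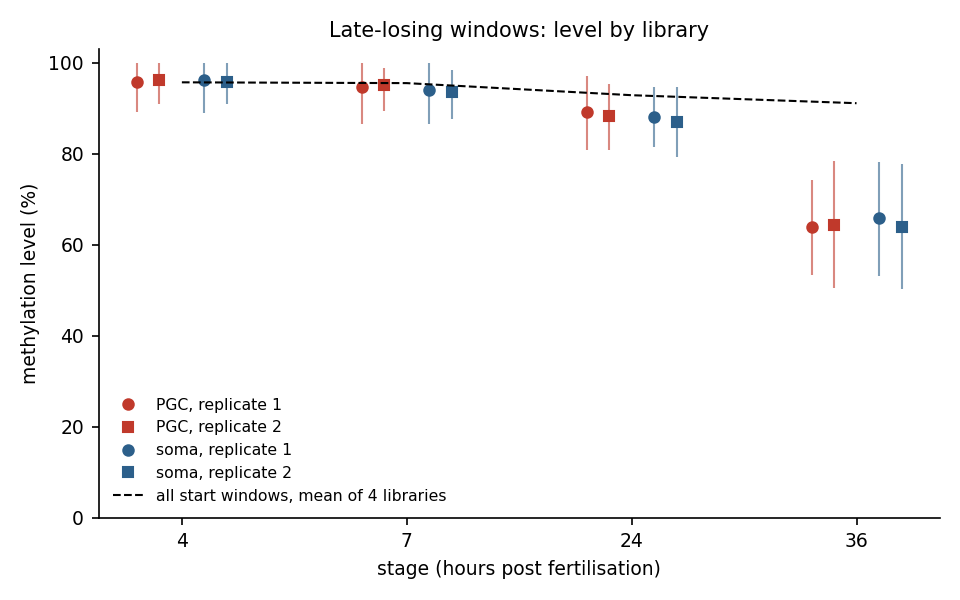
Mean methylation level (%) of the 319 late-losing windows in each of the 16 libraries, by stage in hours post fertilisation. Points are means over windows in 1 library (red, PGC; blue, soma; circles, replicate 1; squares, replicate 2), vertical lines span the 10th to 90th percentile of the windows, and the dashed line is the mean of the start windows over the 4 libraries of a stage; the late-losing windows lay at 86.9 to 89.2% in the 24 hpf libraries and at 63.9 to 66.0% in the 36 hpf libraries.

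Library by library, the mean level at 24 hpf was 89.2 and 88.4% in PGC replicates 1 and 2, and 88.2 and 86.9% in soma replicates 1 and 2. By 36 hpf these means were 64.0 and 64.3% in PGCs and 66.0 and 63.9% in soma. Every 36 hpf library was below every 24 hpf library, as the rule required of their sums. From 24 to 36 hpf, replicates 1 and 2 of PGCs fell by 25.2 and 24.0 points, and those of soma by 22.2 and 23.0 points. Over the start windows the same falls were 1.99 and 2.20 points in PGCs and 1.10 and 1.74 points in soma.

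Loss in these windows was partial. The pooled level at 36 hpf ranged from 39.25 to 75.1% with a median of 65.1%, and it was under 50% in 5 windows, 50 to under 60% in 49, 60 to under 70% in 214 and 70% or more in 51. The pooled fall from 24 to 36 hpf ranged from 20.03 to 45.0 points with a median of 22.3 points. It was under 25 points in 241 windows (75.5%), 30 points or more in 18 and 40 points or more in 5. Most of the windows thus lay close to the threshold on the fall.

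The step from 7 to 24 hpf was not flat either. The pooled level fell by a mean of 6.35 points over this step, with a median of 6.83 points, against a mean of 2.73 points over the start windows. Within the limit of 10 points that the rule set, 233 windows (73.0%) fell by 5 points or more, 78 fell by less than 5 points and 8 rose. The largest rise was in the window at chr24:9550501-9551000, which went from 84.97% at 7 hpf to 93.8% at 24 hpf and 72.3% at 36 hpf. This window was singled out after its values were seen.

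The timing was next measured in libraries that took no part in choosing the windows. The rule was applied to replicate 1 alone, to replicate 2 alone, to PGCs alone or to soma alone, with at least 30 calls per stage in the choosing libraries, and the chosen windows were read in the remaining 8 libraries. A late fall was present there, but it was smaller, and it was preceded by a fall from 7 to 24 hpf that was larger than in the choosing libraries, where the rule held it under 10 points per window.

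Windows chosen in replicate 1 numbered 720 and fell by 24.3 points from 24 to 36 hpf in replicate 1 and by 13.7 points in replicate 2. Start windows of the same choice fell by 1.99 points in replicate 2. From 7 to 24 hpf the same 720 windows fell by 4.88 points in replicate 1 and by 12.6 points in replicate 2, against 2.75 points for start windows. In replicate 2 these windows thus lost methylation over both steps by similar amounts.

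Windows chosen in replicate 2 numbered 992 and fell by 24.3 points from 24 to 36 hpf in replicate 2 and by 10.7 points in replicate 1. The fall in replicate 1 was 13.04 points in PGCs and 8.70 points in soma. From 7 to 24 hpf they fell by 4.84 points in replicate 2 and by 8.75 points in replicate 1. Start windows fell by 1.45 points over the later step and 2.77 points over the earlier step in replicate 1.

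Between cell types the same was seen, although PGCs and soma of 1 replicate number may share embryos. The 1493 windows chosen in PGCs fell by 24.9 points in PGCs and 10.9 points in soma from 24 to 36 hpf, and by 4.81 and 12.2 points from 7 to 24 hpf. The 616 windows chosen in soma fell by 23.9 points in soma and 13.4 points in PGCs from 24 to 36 hpf, and by 4.56 and 8.88 points from 7 to 24 hpf. Start windows fell by 1.35 points in soma and 2.08 points in PGCs over the later step. In these unused libraries the windows chosen in PGCs fell in soma by 10.3 and 12.7 points (replicates 1 and 2), and those chosen in soma fell in PGCs by 13.8 and 12.9 points.

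Counted by window, between 91.6 and 95.1% of the chosen windows fell from 24 to 36 hpf in the unused libraries, against 64.6 to 71.5% of start windows. A fall of at least 10 points was found in 62.8% (chosen in replicate 1), 53.4% (replicate 2), 52.3% (PGC) and 62.3% (soma), against 2.56 to 3.93% of start windows. A fall of at least 10 points already from 7 to 24 hpf was found in 66.9%, 39.8%, 60.7% and 38.8% of them. The whole rule was met in the unused libraries by 62 windows (8.61%), 77 (7.76%), 92 (6.16%) and 92 (14.9%), against 0.0818 to 0.203% of start windows. A later fall of at least 10 points was therefore found again in 52.3 to 62.8% of the chosen windows, depending on the choice. The fall of at least 20 points that the rule asked for was found in only 11.39 to 24.03% of them, against 0.2863 to 0.8753% of start windows. The whole late pattern was found in 14.9% of the chosen windows or fewer. A later fall is not particular to such windows. In 10599 start windows the summed level fell by 10 points or more at each of the 2 steps, as given below.

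**Figure D2:**
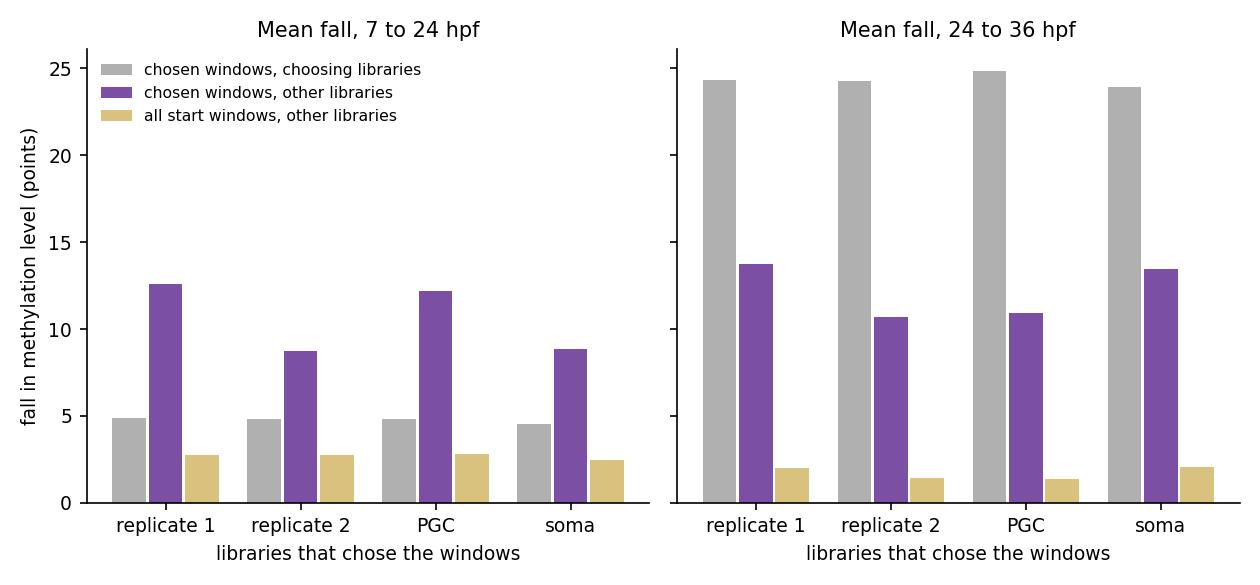
Mean fall in methylation level (percentage points, axis from 0) from 7 to 24 hpf (left) and from 24 to 36 hpf (right) for windows chosen by the rule in replicate 1, replicate 2, PGCs or soma alone. Grey bars are the libraries that chose the windows, purple bars the unused libraries and yellow bars the start windows in the unused libraries; the later fall drops from 23.9 to 24.9 points in the choosing libraries to 10.7 to 13.7 points in the unused ones, where the earlier fall is 8.75 to 12.6 points.

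Among the 319 late-losing windows themselves, 152 met the rule in replicate 1 alone, 164 in replicate 2 alone and 60 in each of the replicates taken alone. The rule was met in PGCs alone by 210 windows, in soma alone by 175 and in each of the cell types alone by 89. All 4 of these readings were met by 31 windows (9.72%), and 63 windows met the rule in neither replicate alone. Only 230 of the 319 were start windows in replicate 1 taken alone, so the others could not meet the rule there. In replicate 2, PGCs and soma taken alone, 314, 315 and 314 of them were start windows. The rule used these libraries, so nothing is read from these counts.

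The fall was also read in the 4 pairs of libraries that share a cell type and a replicate number at 24 and 36 hpf. A pair is only a naming device here, since the stages are different embryos. A fall of at least 10 points in all 4 pairs was found in 231 late-losing windows (72.4%), against 0.551% of start windows, in exactly 3 pairs in 71 windows and in fewer pairs in 17. The rule used these libraries, so nothing is read from that gap. The level fell by any amount in all 4 pairs in 308 windows and by at least 20 points in all 4 in 40 windows.

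Some windows fell by at least 10 points in 1 replicate or 1 cell type alone. In 10 windows both cell types of replicate 1 fell by at least 10 points and neither of replicate 2 did. An example is chr16:1215001-1215500, with 19 CpGs and 40 to 656 calls per library, where replicate 1 went from 83.4 to 64.5% in PGCs and from 84.8 to 52.6% in soma, while replicate 2 stayed between 94.9 and 97.5% in these 4 libraries. The reverse was found in 1 window, chr5:68294001-68294500, with falls of 6.63 and 8.46 points in PGCs and soma of replicate 1 and 34.6 and 36.8 points in replicate 2; both windows were singled out after their values were seen. A fall of at least 10 points in both PGC pairs and in neither soma pair was found in 1 window, described below, and the opposite in 0 windows. At 36 hpf replicate 1 was deeper, with a median of 188 against 101 calls per late-losing window in PGCs and 182 against 100 in soma. Replicate 1 thus weighed more in the summed level of that stage, on which the rule rests. The shares of these patterns among start windows were not counted, so nothing is read from these counts.

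The windows with the largest falls, among those with at least 10 calls in each library and a fall of at least 10 points in all 4 pairs, are given next with their values in each library. They were picked for their fall in these same libraries, so nothing is read from the gap between their stages. Positions are those of danRer10, the build of the tables, counted from 1. Genes, exons and other annotations at these positions were not analysed here, because the annotation at hand is of another build. The first window, chr22:11223001-11223500, held 6 CpGs. Its level at 24 hpf was 87.5 and 73.3% in PGC replicates 1 and 2 and 81.03 and 90.6% in soma. By 36 hpf PGCs had reached 40.8 and 43.7% and soma 45.5 and 24.4%. The pooled level fell by 45.0 points, from 84.2 to 39.25%. All 4 libraries of 4 hpf were at 100%, and those of 7 hpf lay between 86.0 and 96.9%.

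The window at chr22:562001-562500, with 6 CpGs, was at 95.1 and 86.4% in PGCs and 89.4 and 100% in soma at 24 hpf. At 36 hpf it was at 43.1 and 44.2% in PGCs and 48.0 and 56.5% in soma, a pooled fall of 44.6 points. The 4 libraries of 36 hpf thus ranged from 43.1 to 56.5%. The deepest of these windows was chr20:32426501-32427000, with 11 CpGs and 39 to 393 calls per library. It stood at 92.8 and 80% in PGCs and 92.7 and 88.3% in soma at 24 hpf. It stood at 50.1 and 45.2% in PGCs and 42.9 and 49.0% in soma at 36 hpf. Its pooled level fell by 42.2 points after a fall of 6.69 points from 7 to 24 hpf.

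Libraries were less alike at chr9:8610501-8611000, with 7 CpGs. The level at 24 hpf was 76.7 and 95.7% in PGCs and 92.9 and 81.8% in soma. By 36 hpf PGCs had reached 64.0 and 35.3% and soma 34.3 and 30.2%. The fall was 12.7 points in PGC replicate 1 and 51.6 to 60.4 points in the other pairs. At chr7:68481001-68481500, also with 7 CpGs, the level was 90.9 and 80.2% in PGCs and 92.2 and 95.5% in soma at 24 hpf. By 36 hpf PGCs were at 50.3 and 42.4% and soma at 57.0 and 65.6%. PGCs were lower than soma in each replicate at each of these stages, and the pooled level fell by 36.1 points.

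The window at chr23:27225001-27225500, with 8 CpGs, fell by a pooled 33.3 points to 48.3 to 51.8% in the 4 libraries of 36 hpf. Its level at 24 hpf was 79.4 and 90.5% in PGCs and 81.8 and 82.6% in soma. The window at chr6:60088001-60088500 fell by 32.9 points, and PGCs read 51.6 and 51.2% there at 36 hpf while soma read 60.9 and 32.1%. The last of the set, chr16:54587001-54587500 with 15 CpGs, split by replicate number at 36 hpf. It was at 69.5% in PGCs and 76.7% in soma of replicate 1, and at 41.5 and 45.4% in replicate 2. Its 24 hpf libraries lay between 85.3 and 96.7%.

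Single-library levels of these 8 windows had a 95% Wilson interval with a median width of 14.4 points, from 3.66 to 37.6 points. The fifth window with a pooled fall of 40 points or more, chr5:65010501-65011000, had as few as 7 calls in a library. It fell from 82.4% at 24 hpf to 41.9% at 36 hpf, where soma read 62.7% in replicate 1 and 11.1% in replicate 2.

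At the threshold, the windows chr15:20111501-20112000 and chr23:34514001-34514500 lay just inside with a pooled fall of 20.03 points each. The windows chr23:30307001-30307500 and chr22:20942001-20942500 lay just outside with 19.99 points each. The former pair reached 67.4 and 69.1% at 36 hpf and the latter 69.0 and 65.9%.

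PGCs and soma were then compared within the late-losing windows, since the rule summed the cell types and did not use their difference directly. A library with a chance low or high reading can still bring a window over the threshold, so the comparison is only roughly independent of the choice. PGC minus soma of the mean level was -0.499 and 0.274 points in replicates 1 and 2 at 4 hpf, and 0.616 and 1.53 points at 7 hpf. It was 1.03 and 1.44 points at 24 hpf, a mean of 1.23 points, and -1.94 and 0.393 points at 36 hpf, a mean of -0.772 points. The sign was the same in both replicates at 7 and 24 hpf and differed between them at 4 and 36 hpf. With 2 libraries a group no exact test can pass 0.05. With each library of the stage left out in turn, the difference lay between 0.586 and 1.88 points at 24 hpf and between -1.79 and 0.250 points at 36 hpf, where its sign changed.

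Windows with other timing are given for comparison, as values without a test. In 2233 windows the level fell by 20 points or more from 7 to 24 hpf and by less than 10 points after it, and in 10599 windows it fell by 10 points or more at each of these steps. At 24 hpf, PGCs were above soma by 5.25 and 5.71 points (replicates 1 and 2) in the former set and by 5.07 and 5.10 points in the latter. In the start windows the difference was 0.722 and 0.740 points. The late-losing windows, at 1.03 and 1.44 points, lay nearer to the start windows. These sets were chosen by the fall of the summed level up to 24 hpf, so nothing is read from this order. At 36 hpf the sign differed between replicates in each set, with -4.55 and 1.99 points in the early-losing windows and -5.13 and 1.82 points in those that lost at both steps. From 24 to 36 hpf, windows that lost at both steps fell by 22.9 and 18.7 points in PGCs and by 12.7 and 15.5 points in soma. Early-losing windows fell by 10.98 and 8.49 points in PGCs and by 1.18 and 4.77 points in soma. The sets were chosen on that fall, so nothing is read from this order either.

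**Figure D3:**
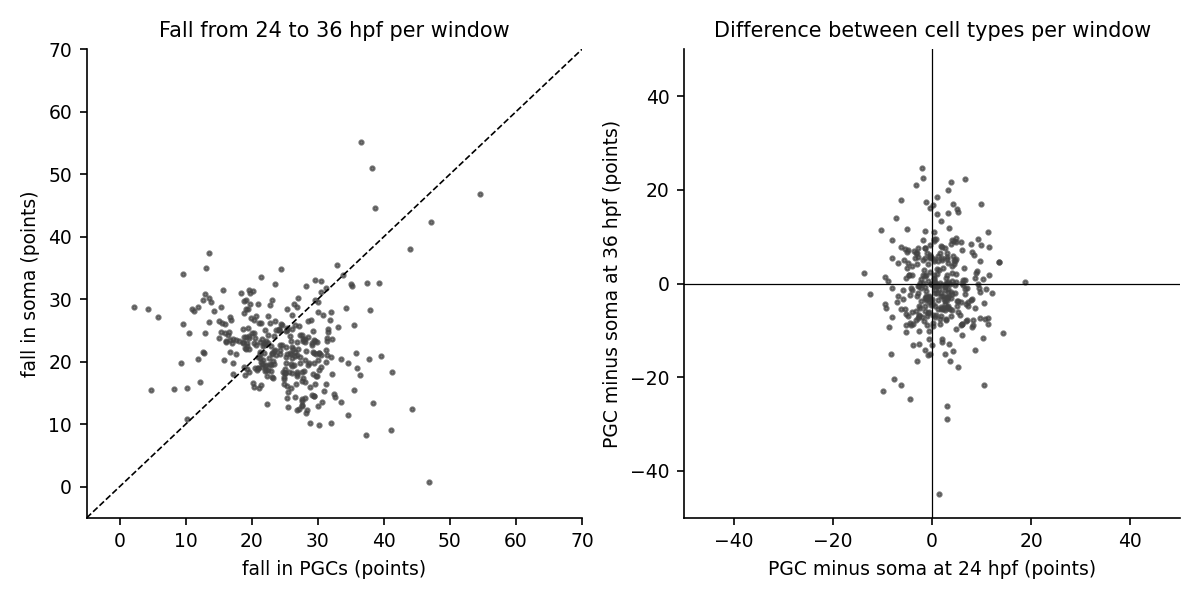
Each point is 1 of the 319 late-losing windows. Left, fall from 24 to 36 hpf in percentage points in PGCs (horizontal) against soma (vertical), means of 2 replicates, with the line of equal falls. Right, PGC minus soma in points at 24 hpf (horizontal) against 36 hpf (vertical), means of 2 replicates; the points spread wider at 36 hpf, from -44.8 to 24.6 points, than at 24 hpf, from -13.8 to 18.9 points, and lie on all sides of 0.

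By window, PGCs were above soma in both replicates at 24 hpf in 104 late-losing windows (32.6%, against 33.2% of start windows) and below in 57 (17.9%, against 17.6%). At 36 hpf they were above in 60 windows (18.8%, against 25.2%) and below in 85 (26.6%, against 24.4%). The fall from 24 to 36 hpf was larger in PGCs in both replicates in 98 windows (30.7%, against 30% of start windows) and larger in soma in 62 (19.4%, against 20.6%). These shares were near the background except for the lower share of windows with PGCs above soma at 36 hpf, a difference that was not tested.

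Window by window, edgeR's quasi-likelihood test on methylated and unmethylated counts, adjusted by Benjamini-Hochberg over all 798513 windows, called 0 late-losing windows and 0% of all windows between PGCs and soma at 24 hpf, and likewise at 36 hpf. limma on log2 ratios also called 0 at each stage. An unadjusted p under 0.05 was reached in edgeR by 15 late-losing windows (4.70%, against 3.89% of all windows) at 24 hpf and by 22 (6.90%, against 3.21%) at 36 hpf. By limma it was reached by 19 windows (5.96%, against 4.2% of all) at 24 hpf and by 12 (3.76%, against 3.77%) at 36 hpf. The difference of the falls between the cell types was called in 0 late-losing windows and 0% of all windows by edgeR and in 0 by limma. Of the late-losing windows, 20 (6.27%, against 3.96% of all) reached an unadjusted p under 0.05 in edgeR and 17 (5.33%, against 4.11%) in limma. The rule used the levels at these stages. At 36 hpf the mean pooled level was 64.6% in the late-losing windows and 85.15% in all windows. The shares at unadjusted p are therefore not set against a like background, and nothing is read from them. With 2 libraries a group, 0 calls do not show that the cell types were alike.

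Leaving out 1 library with the remaining one assumed to vary like the others changed the calls at 36 hpf. Without PGC replicate 1, edgeR called 4 late-losing windows, all with the higher level in PGCs, among 104 of all windows (0.013%), of which 46 were higher in PGCs (0.00576%). Without soma replicate 2 it called 1, also higher in PGCs, among 163 (0.0204%), of which 87 were higher in PGCs (0.0109%). The window called in each of these fits was chr8:46343001-46343500, described below, with adjusted p of 0.0103 and 0.00118 in edgeR. The others were chr10:33609001-33609500, chr16:1215001-1215500 and chr16:1216001-1216500. At these 3, PGC replicate 2 was at 97.5 to 100% at 36 hpf and soma replicate 1 at 40.6 to 53.7%, and PGC replicate 1, the library left out, was at 44.9 to 64.5%. At 36 hpf soma replicate 1 was the lowest library in each of the 4 windows, while soma replicate 2 stood at 94.1 to 96.5%, so that the soma replicates were far apart. These windows were singled out after the calls were seen.

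The largest differences between cell types at 36 hpf were next read by library, in windows with at least 10 calls in each 36 hpf library and 1 sign in both replicates. Soma was most above PGCs at chr14:1854001-1854500, the window in which both PGC pairs and neither soma pair fell by at least 10 points. At 24 hpf it was at 88.0 and 100% in PGCs and 90.2 and 95.1% in soma. At 36 hpf PGCs were at 61.0 and 33.3% and soma at 92.3 and 91.7%. The difference of -44.8 points had an unadjusted p of 0.0094 in edgeR (adjusted p = 1), and depth was low, with 12 to 61 calls per library.

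At chr18:16043001-16043500, a deeper window with 14 CpGs, PGCs stood at 38.4 and 54.3% and soma at 75.1 and 75.2% at 36 hpf. At 24 hpf they stood at 97.01 and 84.1% and at 88.2 and 86.8%. The difference of -28.8 points had the unadjusted p of 0.000478 in edgeR (adjusted p = 1). At chr24:2185001-2185500, PGCs were at 55.5 and 44.4% and soma at 79.2 and 72.9% at 36 hpf. These windows were picked for a large difference with 1 sign in both replicates, so nothing is read from the gap between their PGC and soma libraries.

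In the other direction, chr23:41101501-41102000 was at 78.9 and 72.1% in PGCs and 51.8 and 54.0% in soma at 36 hpf. Its 24 hpf libraries were at 85.7 and 84.4% in PGCs, and soma stood at 83.7 and 90%. The window chr1:16759001-16759500 was at 82.7 and 86.1% in PGCs and 64.0 and 60% in soma at 36 hpf, with PGCs also above soma at 24 hpf, at 97.9 and 98.6% against 93.1 and 90.1%. At chr8:46343001-46343500 the difference of 24.6 points rested on 1 library, as soma read 35.0% in replicate 1 and 95.3% in replicate 2, and without replicate 1 the window rose by 0.884 points from 24 to 36 hpf. All 6 windows had an adjusted p of 1.

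At 24 hpf, where the mean level was nearer to 100%, the largest differences were smaller, and nothing is read from that change between stages. Soma was above PGCs at chr3:46733501-46734000, where PGCs read 76.3 and 90% and soma 97.1 and 96.7%. The same direction held at chr19:30166501-30167000, with 76.5 and 78.8% against 88.9 and 91.7%, and at chr11:5264001-5264500, with 81.8 and 88.2% against 92.5 and 98.1%. PGCs were above soma at chr5:45151501-45152000, with 100 and 91.9% against 85.3 and 68.9%. They were above it too at chr6:56536001-56536500, with 100 and 96.9% against 83.3 and 84.9%, and at chr22:37164001-37164500, with 89.4 and 83.9% against 75.5 and 70.8%. These 6 windows were picked for a large difference with 1 sign in both replicates, so nothing is read from the gap between their cell types. Each had an adjusted p of 1 in edgeR.

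Single CpGs were read to see whether the fall of a window was shared by its sites. Of the CpGs in the late-losing windows, 2838 had at least 10 calls at each of 24 and 36 hpf. Their median fall was 23.4 points. A fall of at least 20 points was found in 64.2% and of at least 10 points in 86.9% of them, against 1.15 and 6.44% of the CpGs of start windows. The level rose in 2.40%, against 37.4%, and fell by 50 points or more at 36 CpGs. Every counted CpG fell by at least 10 points in 118 windows, and 61 windows held a CpG that rose. The shares of such windows among start windows were not counted, so nothing is read from the counts of windows.

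These falls come from the libraries that the rule used. In windows chosen by replicate or cell type and read in the unused libraries, the median fall of a CpG with at least 10 calls at each stage was 13.05 points (chosen in replicate 1), 10.45 (replicate 2), 10.3 (PGC) and 12.6 (soma). A fall of at least 10 points was found in 51.4 to 58.6% of these CpGs, against 9.48 to 11.85% in start windows, and a rise in 13.4 to 16.6%, against 33.4 to 39.5%. A majority of the CpGs thus fell by that much there too, in the 4 choices alike.

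Without the CpG of the largest fall, 191 windows (59.9%) still fell by 20 points or more, 317 by 15 points or more and all 319 by 10 points or more, with a median of 20.7 points. The largest single-CpG fall in a window had a median of 35.7 points and reached 69.5 points. The windows were chosen for a pooled fall of at least 20 points in these same calls, so nothing is read from these counts.

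**Figure D4:**
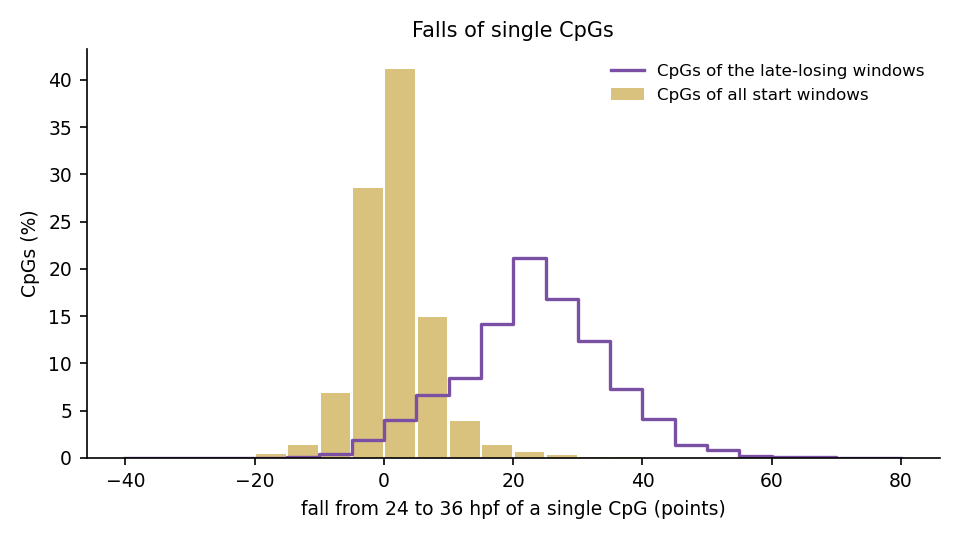
Distribution of the fall from 24 to 36 hpf of single CpGs, in percentage points, in bins of 5 points, as a percentage of CpGs. The purple line is the 2838 CpGs of the late-losing windows and the yellow bars are the CpGs of all start windows; the commonest bin is 20 to 25 points (21.1%) in the former and 0 to 5 points (41.2%) in the latter.

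Windows around the late-losing windows changed less than these, which had been chosen for their fall. The mean pooled fall from 24 to 36 hpf was 23.5 points at the window and 6.74 and 7.61 points in the windows 500 bp upstream and downstream in the coordinates, read where they held at least 3 CpGs. At 1000 bp it was 2.64 and 2.96 points, and it lay between 2.10 and 3.796 points out to 5 kb. In the windows next to start windows it was 1.55 and 1.53 points, and next to early-losing windows it was 6.31 and 6.05 points. A fall of the adjacent windows was thus shared with that set. From 1 to 5 kb away the fall lay between 1.44 and 1.53 points around start windows, below all values around the late-losing windows. Around early-losing windows it lay between 2.195 and 3.396 points there. The falls beside the late-losing windows were alike in both replicates, at 6.95 and 6.74 points on one side and 7.73 and 7.66 points on the other. They were 7.51 and 8.45 points in PGCs and 6.20 and 6.95 points in soma. Adjacent windows can share reads with the late-losing window, so these values are not fully independent of the choice. In the unused libraries, which fell less at the chosen windows, the profile was flatter. The mean fall there was 10.7 to 13.7 points at the chosen windows over the 4 choices, 4.61 to 7.11 points at 500 bp and 1.98 to 3.07 points at 1000 bp. Beyond that it lay between 1.43 and 3.50 points out to 5 kb, against 1.16 to 1.96 points around start windows.

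Of the adjacent windows, 237 met the minimums on CpGs and calls. Their fall had a median of 5.17 points, and 75 of them (31.6%) fell by 10 points or more, against 2.42% of all windows. No late-losing window was adjacent to another, and the nearest other one lay at a median distance of 856.5 kb. A window that lost methylation at both steps was adjacent to 47 late-losing windows (14.7%, against 1.17% of start windows) and within 5 kb of 113 (35.4%, against 7.23%). These shares were higher in the other losing sets, so they are not particular to the late-losing windows. They were 20.7 and 45.0% for early-losing windows, and 21.8 and 44.2% for windows that lost at both steps, counting another such window. A window that lost methylation by 24 hpf and was then stable was adjacent to 1 (0.313%, against 0.264% of start windows) and within 5 kb of 10 (3.13%, against 1.84%). A window under 20% at 4 hpf lay within 5 kb of 35 late-losing windows (10.97%, against 13.2% of start windows).

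**Figure D5:**
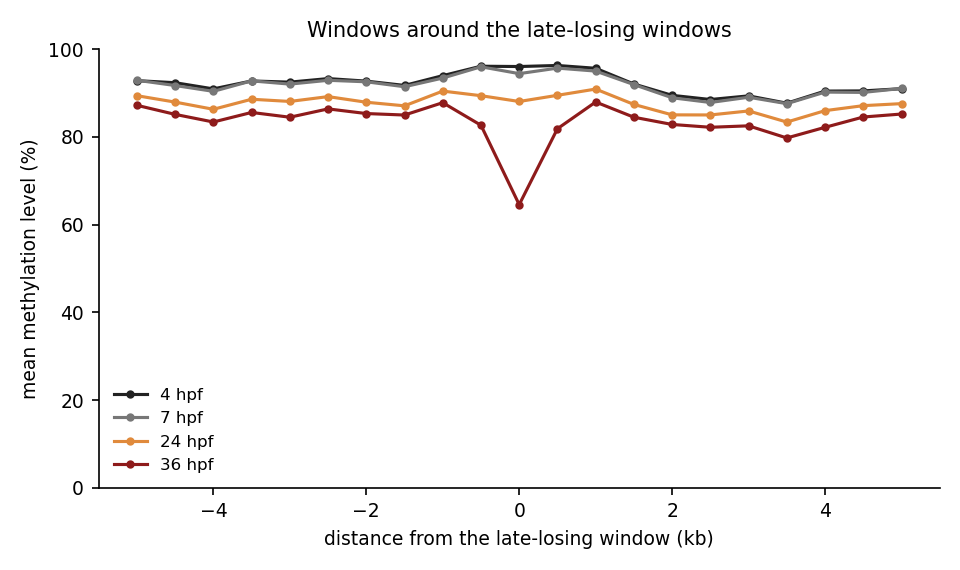
Mean methylation level (%) in 500 bp windows from 5 kb before to 5 kb after the 319 late-losing windows, by distance in kb, one line per stage, calls of PGCs and soma summed. The 36 hpf line dips to 64.6% at the window itself and stands at 82.7 and 81.9% in the adjacent windows and at 87.8 and 88.0% at 1 kb, while the 24 hpf line is at 88.1% at the window.

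In number of CpGs and in depth, on which the rule set only minimums, the late-losing windows lay near the start windows. They held a median of 8 CpGs, as did start windows, and had a median of 196 calls per CpG over the 16 libraries, against 189 calls. Per 10000 start windows there were 4.73 late-losing windows among those with 5 or 6 CpGs, 4.28 with 7 or 8, 4.49 with 9 to 12 and 3.85 with 13 or more. By calls in the thinnest group there were 4.17 per 10000 at 30 to 59 calls, 4.95 at 60 to 99 and 4.07 at 100 or more. The rate was thus highest at 5 or 6 CpGs and lowest at 13 or more, and by calls it was highest in the middle class. The thinnest group can be of any stage. Median calls per late-losing window at 24 hpf were 71 and 92 in PGC replicates 1 and 2, against 62 and 94 in start windows. They were 115 and 120 in soma, against 106 and 127. At 36 hpf they were 188 and 101 in PGCs, against 170 and 109. In soma they were 182 and 100, against 170 and 107. The late-losing windows thus lay above start windows in replicate 1 and below them in replicate 2. Whether they were gathered among windows with few calls at these stages was not tested.

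They lay on all 25 chromosomes. Chromosome 7 held 25 of them, chromosome 5 held 21 and chromosome 17 held 20. Per 10000 start windows the count ran from 1.69 on chromosome 9, with 5 late-losing windows, to 6.83 on chromosome 17. The distance to the nearer end of the listed positions of the chromosome had a median of 14580 kb, against 13310 kb for start windows.

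The number of late-losing windows depended on single libraries. Without replicate 1 it was 803, of which 147 were among the 319, and without replicate 2 it was 170, of which 37 were. As the start windows over the call minimum also fell, to 635997 and 128968, these counts were 12.6 and 13.2 per 10000 start windows, against 4.39 with all libraries. It was 630 without soma 24 hpf replicate 2 (272 shared), or 8.80 per 10000. Without PGC 4 hpf replicate 2 it was 133 of 276226 start windows and without soma 4 hpf replicate 2 it was 72 of 159299, or 4.82 and 4.52 per 10000, near the rate with all libraries.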

How the data were processed

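Whole-genome bisulfite libraries of sorted PGCs and soma at 4 stages were analysed from 2 deposited tables, 1 per replicate number. Per the study's methods and the submitters' processing notes, the authors trimmed reads with fastp 0.12.5, mapped them with WALT to danRer10 with lambda added, removed duplicates with Picard 2.3.0 and counted calls with MethylDackel, with both strands of each CpG combined and likely variant positions dropped. Deposited were raw counts per CpG and library, of methylated calls and of all calls. Each table lists CpGs with a call in all 8 of its libraries, so which CpGs are read depends on its shallowest library, and 10260021 nuclear CpGs in both tables were used. Columns were matched to samples by cell type and stage in their names and by replicate number in the table's name, and groups came from the sample labels.

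Calls were summed over windows of 500 bp, and all windows with at least 5 shared CpGs and 30 calls per group were kept. The members, comparison sets and rules were chosen with earlier results of these data known. Named windows were the 8 largest falls among windows with at least 10 calls in each library and a fall of at least 10 points in all 4 pairs, the 3 largest PGC minus soma differences in each direction at 24 and at 36 hpf with 1 sign in both replicates, and the 2 windows just inside and just outside the threshold. Longest runs of adjacent windows were also to be named, but no late-losing windows were adjacent.

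PGCs and soma were compared per window by edgeR 4.0.16 (quasi-likelihood F-test of cell type on the methylated against the unmethylated counts, each library having its own term) in R 4.3.3, and by limma 3.58.1 on log2((methylated + 1)/(unmethylated + 1)), adjusted by Benjamini-Hochberg over all windows at 0.05. Replicates were taken as the labels number them. The study's methods call them technical at 4 hpf and biological at 7, 24 and 36 hpf, the stages tested being 24 and 36 hpf. Flanks and single CpGs were also read in the libraries not used for a choice, a reading chosen after seeing the data. The remaining steps used Python 3.11.15, numpy 2.4.6 and scipy 1.17.1. The rule and tests were also run on simulated data, with planted changes larger than the fall of most late-losing windows. Those runs only check that the steps work, and do not show how the rule and tests behave on these data. Alternatives covered call and CpG minimums, window size and offset, averaging, thresholds, the test, a replicate block and leaving out libraries. No sequence or gene annotation was used here.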

Additional observations from a re-analysis of the deposited data

How the results depend on the processing

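From 319 windows, the count of late-losing windows became 111 with a minimum of 100 calls per group, 111 with at least 10 CpGs, 177 with windows of 1000 bp, 1408 with a fall of 15 points, 18 with a fall of 30 points and 193 without the CpG of the largest fall (178 shared). Which windows met the rule also changed where the count held. With windows shifted by 250 bp the count was 302, and these overlapped only 120 of the 319. It was 426 with the mean of the 4 library levels of a stage (259 shared) and 316 with the mean of the CpG fractions (245 shared). With replicates or libraries left out in turn it ranged from 72 to 803. Fewer start windows were also left under the stricter minimums, 272673 at 100 calls and 263755 at 10 CpGs, against 726463. The cause of the lower counts was not tested. The fall in replicate 2 of windows chosen in replicate 1 became 15.1 points at 60 calls and 14.8 points at 10 CpGs. The fall in PGCs of windows chosen in soma became 14.9 points at 10 CpGs and 14.3 points from summed calls. Without 1 replicate it ranged from 10.2 to 13.4 points, and that in soma of windows chosen in PGCs from 9.92 to 10.05 points. PGC minus soma ranged from 0.586 to 1.88 points at 24 hpf and from -1.79 to 0.250 points at 36 hpf over libraries left out. Without replicate 1, the level at chr8:46343001-46343500 changed the other way, a fall of -0.884 points, and without replicate 2 it fell by 36.8 points.

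Same-numbered PGC and soma libraries deviated together with correlations of 0.0117, 0.247, 0.233 and 0.196 from the earliest to the latest stage, and no source used here says what a number shares. With a replicate block, edgeR called 32 windows at 24 hpf, 41 at 36 hpf and 4 for the difference of falls, in place of 0 each, and 0 late-losing windows in each. With 1 library left out, edgeR called 3 to 21 windows at 24 hpf, 11 to 163 at 36 hpf and 0 to 1 for the difference of falls. Of 120 falls of named windows under alternatives, 106 moved by less than the spread between replicates, 13 moved more and 1 changed sign. That spread was the SD of the falls in the 2 replicates, and the alternatives included leaving out either replicate. A fall left with 1 replicate could hardly move by more than that SD, so the count is no measure of stability there. Depth limits levels in single libraries most, above all in replicate 1 of 4 hpf.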
